A study of Danio rerio with 4 samples.

Results

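In RNA recovered with FLAG-tagged Ddx3xb, a small group of named zebrafish genes was almost missing at the age labelled as older. The group was well represented at the age labelled as younger, and whether the age labels were exchanged was not tested. Its members are the genes below 1 RPKM (reads scaled to gene length and library size) in the table labelled 4 hpf (hours post-fertilization) and at 10 RPKM or more in the table labelled 2 hpf, here called the 4 hpf and the 2 hpf table after their labels. Members also needed an Ensembl symbol that is no clone name, and symbols beginning with krt, cyt1, cldn, slc, mir, apo, tbx, sox, mxtx, hnrnp, znf or stm were left out. The genes were chosen by these RPKM values in both tables, so the size of their difference is a description and carries no test. The rule found 19 genes among 27205 in either table. In all, 2487 genes reached 10 RPKM in the table labelled 2 hpf, and 42 of these (1.69%) were below 1 RPKM in the table labelled 4 hpf. Of the 42, 10 had no symbol, 6 had clone names and 7 began with a prefix that was left out. Of the 10 without a symbol, 5 were not listed in the 4 hpf table, and all lay between 10.5 and 185 RPKM in the 2 hpf table. All 19 members were still listed in the table labelled 4 hpf, so none was missing from it.

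Per the labels, wild type embryos injected with flag-ddx3xb mRNA were collected at 4 hpf or 2 hpf and lysed, and RNA held by anti-FLAG beads was sequenced (RIP-seq), with 2 biological replicates per age. Ddx3xb is a DEAD-box RNA helicase, and it came from injected mRNA, which reaches cells without a tissue-specific promoter. The source names of all 4 samples also carry the word control, with no further explanation. The deposited values are the authors' mean RPKM per gene and age, so no SD, n or p-value stands behind any value here, and without an input or mock sample a level in the precipitate is not enrichment over the embryo's RNA. In whole embryos, fewer cells of a type and less RNA per cell cannot be told apart.

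Early zebrafish embryos run on RNA that the mother left in the egg. Over the first hours that RNA is cleared in part, while the embryo's own genome is switched on, a handover called the maternal-to-zygotic transition. During the same period the first tissues separate: the enveloping layer, a thin outer epithelium, the yolk syncytial layer, which takes up and exports yolk nutrients, and the deep cells, which form the embryo proper. The 19 genes encode regulators of chromatin and transcription, RNA-related products, signalling proteins, proteins of epithelia, membranes and the cytoskeleton, and enzymes of lipid and protein handling.

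The direction of every difference rests on the age labels, and a small difference can also turn with the scaling of the tables. Over the 13341 genes that reached 1 RPKM in either table, the median of log2(RPKM + 1), 4 hpf minus 2 hpf, was 0.66. It was -0.075 once the tables were scaled to an equal median ratio. The marker directions that follow are those of the deposited values, and whether they hold under other scalings was not tested. Of 10 listed enveloping layer markers, 3 in the 4 hpf table and 8 in the 2 hpf table reached 1 RPKM, with summed levels of 103 RPKM in the 4 hpf table and 150 RPKM in the 2 hpf table. Of the 10, 9 were lower in the 4 hpf table, and the exception was epcam, an epithelial adhesion gene, with 71.5 RPKM in the 4 hpf table and 36.8 RPKM in the 2 hpf table. The 5 yolk syncytial layer markers summed to 3.28 RPKM in the 4 hpf table and 33.9 RPKM in the 2 hpf table, and all 5 were lower in the 4 hpf table. Among them apoc1, with 0.957 and 22.3 RPKM in that order, also met both RPKM limits and was left out by its prefix. The 3 deep cell markers gave no common direction, and their sum of 18.6 RPKM in the 4 hpf table and 132 RPKM in the 2 hpf table was mostly noto, a notochord gene that the embryo itself transcribes, with 9.21 RPKM in the 4 hpf table and 125 RPKM in the 2 hpf table. GSC had 1.22 RPKM in the 4 hpf table and 3.16 RPKM in the 2 hpf table, and WNT8A went the other way with 8.15 and 3.47 RPKM. Germ line and egg markers ran the other way, with 379 RPKM in the 4 hpf table and 84.6 RPKM in the 2 hpf table over 6 genes, 5 of them higher in the 4 hpf table. Most of that sum was the egg-polarity gene buc, with 295 RPKM in the 4 hpf table and 53.4 RPKM in the 2 hpf table. An exchange of the age labels would turn all these directions round, and whether the labels were exchanged was not tested. The part of these tissues in the differences of the 19 genes was not tested. None of the 5 listed markers of differentiated tissues reached 1 RPKM in either table.

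The read numbers behind the tables could be estimated, because a low RPKM value stands for a few whole reads in each of 2 libraries. A read adds a different step to the mean in each library. Of the 3511 genes below 0.2 RPKM in both tables, 1576 (44.9%) had a ratio between the tables that equals a ratio of at most 2 reads per library. The steps put the libraries behind the 4 hpf table at about 15003000 and 7913000 reads, and those behind the 2 hpf table at about 10115000 and 4874000 reads. Which library is which replicate cannot be told from the values. For a member at 10 RPKM in the 2 hpf table this means 97.5 to 202 reads per kilobase of gene, the range covering every way the reads could be divided between the 2 libraries. A value of 1 RPKM in the 4 hpf table stands for 15.8 to 30.0 reads per kilobase. These ranges concern reads only, and the spread between replicate batches of embryos remains unknown.

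As a group the members lay between 0.0301 and 0.967 RPKM in the 4 hpf table, with a median of 0.486 RPKM, and between 10.1 and 28.5 RPKM in the 2 hpf table, with a median of 11.3 RPKM. In the ranking of all genes they stood at places 11659 to 23877 in the 4 hpf table and at places 710 to 2474 in the 2 hpf table. On the scale of log2(RPKM + 1), 4 hpf minus 2 hpf, their differences ran from -4.14 to -2.50 with a median of -3.24, while the median over all 13341 genes that reached 1 RPKM in one or both tables (the genes tested here for a 2-fold difference, with no p-value) was 0.66. All 19 were at least 2-fold lower on that scale, as the rule requires, against 10.9% of all genes tested. The ratio of the plain RPKM values, 2 hpf over 4 hpf, ran from 10.4 to 346 with a median of 30.3.

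**Figure D1:**
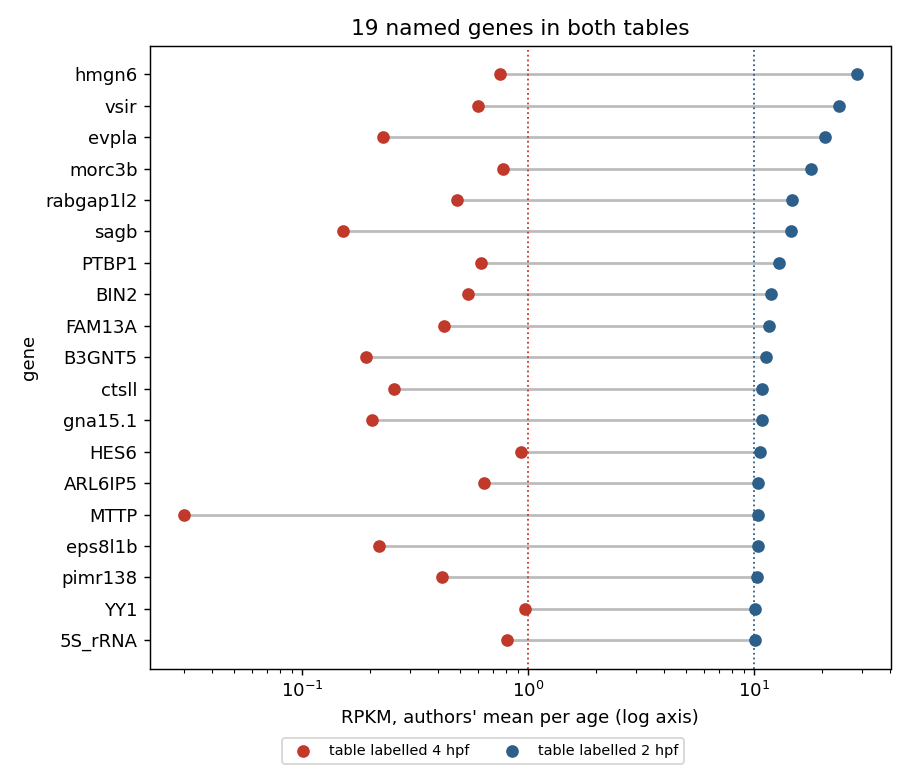
RPKM of the 19 genes on a log axis, the authors' mean in the 4 hpf table (red) and in the 2 hpf table (blue), with 1 gene per row and dotted lines at the limits of 1 and 10 RPKM. MTTP reached furthest to the left, at 0.0301 RPKM in the 4 hpf table, and hmgn6 furthest to the right, at 28.5 RPKM in the 2 hpf table.

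**Figure D2:**
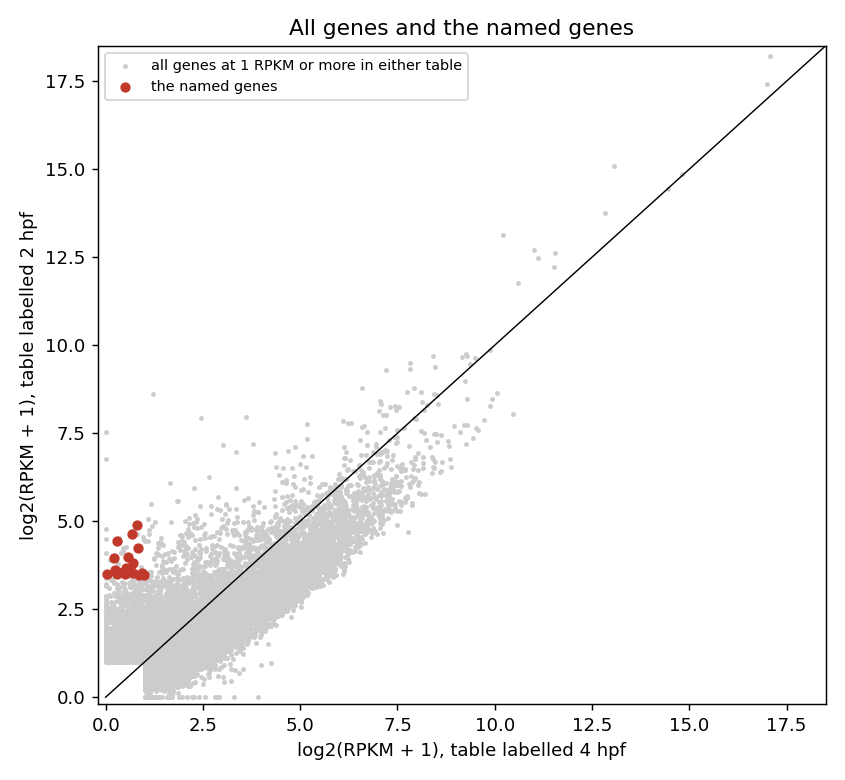
log2(RPKM + 1) of every gene that reached 1 RPKM in one or both tables, the 4 hpf table across and the 2 hpf table upward, with the 19 genes in red and a line of equal values. Most genes lie below the line, and the 19 lie in the upper left, where the rule placed them.

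The regulators of chromatin and transcription were hmgn6, morc3b, HES6 and YY1. The gene hmgn6 encodes a high mobility group protein of the kind that binds nucleosomes. It had 0.749 RPKM in the 4 hpf table and 28.5 RPKM in the 2 hpf table, the highest 2 hpf level of the 19 and a 38.0-fold gap. The gene morc3b belongs to a family of nuclear ATPases that act on chromatin in mammals, and it had 0.775 RPKM in the 4 hpf table and 17.8 RPKM in the 2 hpf table. Both stood well clear of the limit of 10 RPKM. HES6, a basic helix-loop-helix factor that in mouse promotes neuronal differentiation and opposes Hes1, had 0.927 RPKM in the 4 hpf table and 10.6 RPKM in the 2 hpf table. YY1, a zinc finger factor that activates or represses transcription depending on the promoter, had 0.967 RPKM in the 4 hpf table and 10.1 RPKM in the 2 hpf table. HES6 and YY1 were near both limits, and their gaps of 11.5-fold and 10.4-fold were the narrowest of the 19.

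PTBP1 and 5S_rRNA were the RNA-related members. PTBP1, which encodes the polypyrimidine tract-binding protein that represses exons during splicing, had 0.619 RPKM in the 4 hpf table and 12.9 RPKM in the 2 hpf table. The 5S_rRNA entry (ENSDARG00000085409), 1 of many genomic copies of the small ribosomal RNA that RNA polymerase III transcribes, had 0.804 RPKM in the 4 hpf table and 10.1 RPKM in the 2 hpf table. The labels give the molecule as polyA RNA and the library kit as one for small RNA. For a gene so short these values rest on few reads. The only gene length up to 200 bases at which both values came out as whole reads was 120 bases, with 1 and 1 reads in the libraries of the 4 hpf table and 12 and 6 reads in those of the 2 hpf table. The difference of this member thus rests on 2 reads against 18.

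Signalling proteins formed a further set, with vsir, sagb, gna15.1 and pimr138. The gene vsir encodes VISTA, an immunoglobulin-domain membrane protein that restrains T cells in mammals, and it had 0.602 RPKM in the 4 hpf table and 23.8 RPKM in the 2 hpf table. The gene sagb encodes an S-arrestin, a protein known for shutting off photoreceptor signalling. It had 0.152 RPKM in the 4 hpf table and 14.5 RPKM in the 2 hpf table, a 95.4-fold gap and the second widest of the group. The G protein alpha subunit gene gna15.1 had 0.205 RPKM in the 4 hpf table and 10.8 RPKM in the 2 hpf table. The gene pimr138, from a large zebrafish family related to the Pim serine/threonine kinases, had 0.418 RPKM in the 4 hpf table and 10.3 RPKM in the 2 hpf table. Its family has many similar copies, so reads shared among them may have been divided by the authors' counting.

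Proteins of epithelia, membranes and the cytoskeleton were encoded by evpla, eps8l1b, BIN2, rabgap1l2, ARL6IP5 and FAM13A. The gene evpla encodes envoplakin, a plakin that in mammals joins desmosomes and keratin filaments to the cornified envelope. It had 0.230 RPKM in the 4 hpf table and 20.7 RPKM in the 2 hpf table, a 90.0-fold gap and, at -4.14, the most negative log2 difference of the group. The gene eps8l1b, a relative of the actin regulator EPS8, had 0.219 RPKM in the 4 hpf table and 10.4 RPKM in the 2 hpf table. BIN2, which encodes a BAR-domain protein that binds curved membranes, had 0.542 RPKM in the 4 hpf table and 11.8 RPKM in the 2 hpf table. These 3 genes spanned the range from one of the widest gaps to a moderate 21.8-fold for BIN2. The Rab GTPase-activating gene rabgap1l2 had 0.486 RPKM in the 4 hpf table and 14.7 RPKM in the 2 hpf table. ARL6IP5, which encodes a membrane protein of the endoplasmic reticulum, had 0.636 RPKM in the 4 hpf table and 10.5 RPKM in the 2 hpf table. FAM13A had 0.425 RPKM in the 4 hpf table and 11.7 RPKM in the 2 hpf table. The gaps of rabgap1l2 and FAM13A, 30.3-fold and 27.4-fold, were around the middle of the group, and that of ARL6IP5, 16.4-fold, was among its narrower ones.

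Enzymes and a lipid carrier completed the group. MTTP encodes the microsomal triglyceride transfer protein, which loads lipid onto apolipoprotein B and serves the export of yolk lipid from the yolk syncytial layer in zebrafish. It had 0.0301 RPKM in the 4 hpf table and 10.4 RPKM in the 2 hpf table, a 346-fold gap and the widest of the 19. The value in the 4 hpf table stands for 0.476 to 0.902 reads per kilobase of gene, so the exact fold rests on very few reads. B3GNT5, whose product starts the lacto-series of glycolipids, had 0.192 RPKM in the 4 hpf table and 11.3 RPKM in the 2 hpf table. The cathepsin L-like cysteine protease gene ctsll had 0.255 RPKM in the 4 hpf table and 10.9 RPKM in the 2 hpf table. Together with evpla, sagb and gna15.1, MTTP and B3GNT5 made up the 5 members with a gap of at least 50-fold.

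Many members sat close to the limits that defined them. In the 4 hpf table, 10 of the 19 were below 0.5 RPKM and 9 between 0.5 and 1 RPKM, and 9 lay between 10 and 11 RPKM and 3 at 20 RPKM or more in the 2 hpf table. Just under the limit of the 2 hpf table lay pitpnc1b, with 0.553 RPKM in the 4 hpf table and 9.96 RPKM in the 2 hpf table, and TXNIP, with 0.805 and 9.50 RPKM in that order. The next were fbp1b (0.0800 RPKM in the 4 hpf table and 9.39 RPKM in the 2 hpf table), ECRG4 (0.816 and 9.37 RPKM in that order) and dnaja (0.942 and 9.25 RPKM). Just over the limit of the 4 hpf table lay ANXA1, an annexin gene, at 1.134 RPKM, against 20.6 RPKM in the 2 hpf table. The stress-response gene sesn3 had 1.16 RPKM in the 4 hpf table and 25.7 RPKM in the 2 hpf table, and polr3gla had 1.30 and 27.8 RPKM. The hyaluronan synthase gene HAS2 had 1.38 RPKM in the 4 hpf table and 14.5 RPKM in the 2 hpf table. Genes on the far side of either limit thus had values much like those of the members, and the limits cut a continuous range.

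Relatives of the members were set beside all genes tested. Relatives were found by symbol for 16 members, a choice made after the values were seen, and for 14 of these, leaving out the large 5S_rRNA and pimr families, 21 relatives reached 1 RPKM in one or both tables. Of the 21, 8 were at least 2-fold higher in the 4 hpf table on the log2(RPKM + 1) scale, 4 at least 2-fold lower and 9 neither, against 33% higher and 10.9% lower among all genes tested. Their median difference of 0.38 was below the 0.66 of all genes. With the median ratio made equal, 2 were higher and 6 lower with a median of -0.55. All genes then gave 347 higher and 2533 lower, so 12.05% of the calls were higher, with a median of -0.075. With quantile normalization 3 relatives were higher and 5 lower with a median of -0.46. All genes then gave 1369 higher and 2082 lower, so 39.7% of the calls were higher, with a median of 0.22. With equal sums 9 relatives were higher and 3 lower with a median of 0.76. All genes then gave 6668 higher and 1199 lower, so 84.8% of the calls were higher, with a median of 0.99. The balance between higher and lower thus turned with the scaling, among the relatives and over all genes. After rescaling, the values over all genes are counts and shares of the calls, not shares of the genes tested. Whether relatives were then called more or less often than all genes was not tested. Because the members were picked for being low in the 4 hpf table, a relative above them there follows from that choice, and the relatives' own differences are what the comparison adds.

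Higher relatives occurred for YY1, B3GNT5, BIN2, rabgap1l2, gna15.1 and sagb. The other gene under the symbol YY1 (ENSDARG00000027978) had 15.4 RPKM in the 4 hpf table and 6.34 RPKM in the 2 hpf table, opposite to the member (ENSDARG00000042796). The other B3GNT5 gene (ENSDARG00000004396) had 13.5 RPKM in the 4 hpf table and 5.38 RPKM in the 2 hpf table, again opposite to the member. Beside BIN2, bin2b had 20.4 RPKM in the 4 hpf table and 4.38 RPKM in the 2 hpf table, and beside rabgap1l2, rabgap1l had 17.9 and 5.43 RPKM in the same order of tables. The opposite direction of the members was fixed by their selection, so only the relatives' values are new here. The Gq-class genes gna11a (106 RPKM in the 4 hpf table and 26.5 RPKM in the 2 hpf table) and gna11b (49.0 and 9.45 RPKM) exceeded gna15.1 in the 4 hpf table, and gna11a exceeded it in both. A beta-arrestin gene, ARRB2 (ENSDARG00000039215), had 8.68 RPKM in the 4 hpf table and 3.77 RPKM in the 2 hpf table, beside the visual arrestin gene sagb. The 8 relatives called higher (these genes and BIN1, at 13.5 RPKM in the 4 hpf table and 4.31 RPKM in the 2 hpf table) had a positive difference under each of the 3 scalings tried, although only gna11b and bin2b were still at least 2-fold higher once the median ratio was made equal. The second ARRB2 gene (ENSDARG00000011545) was not among them. It had 0.802 RPKM in the 4 hpf table and 1.03 RPKM in the 2 hpf table, a log2 difference of -0.17 that became 0.023 with equal sums. Levels of different genes are compared here per kilobase of gene.

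Relatives in other families differed less between the tables, or were lower in the 4 hpf table like the member. The chromatin genes hmgn7 (54.8 RPKM in the 4 hpf table and 41.2 RPKM in the 2 hpf table) and morc3a (13.2 and 9.92 RPKM in the same order) differed by 0.40 and 0.38 on the log2 scale, beside -4.07 for hmgn6 and -3.40 for morc3b. Those 2 small differences, that of MORC2 (0.73) and that of the second ARL6IP5 gene (ENSDARG00000016238, 0.12) turned negative with an equal median ratio and with quantile normalization. The second PTBP1 gene (ENSDARG00000031907) had 6.67 RPKM in the 4 hpf table and 24.2 RPKM in the 2 hpf table, so both PTBP1 genes were lower in the 4 hpf table, with log2 differences of -1.72 here and -3.11 for the member. HES1 had 1.104 RPKM in the 4 hpf table and 5.10 RPKM in the 2 hpf table, hmgn3 had 0.998 and 4.36 RPKM, and EPS8L2 had 0.836 and 2.85 RPKM, in the same order of tables. These 4 relatives were lower in the 4 hpf table by at least 2-fold, and EPS8L2 came to -0.87, short of 2-fold, after rescaling to an equal sum. Of the 4, hmgn3 and EPS8L2 passed the limit of 1 RPKM only through the 2 hpf table. Their place among the genes tested thus follows from their 2 hpf level. Members' nearest namesakes were in several cases barely listed in either table. The G protein gene gna15.2 had 0.0717 RPKM in the 4 hpf table and 0.177 RPKM in the 2 hpf table, the second HES6 gene (ENSDARG00000007097) 0.151 and 0.232 RPKM in the same order, and FAM13B 0.210 and 0.324 RPKM. The visual arrestin gene saga, at 0.152 RPKM in the 4 hpf table, equal to sagb to 3 digits, had 1.08 RPKM in the 2 hpf table. The protease gene ctsla was abundant in both tables, with 26.5 RPKM in the 4 hpf table and 42.7 RPKM in the 2 hpf table, and its log2 difference of -0.67 became -1.64 with an equal median ratio and -1.59 with quantile normalization.

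**Figure D3:**
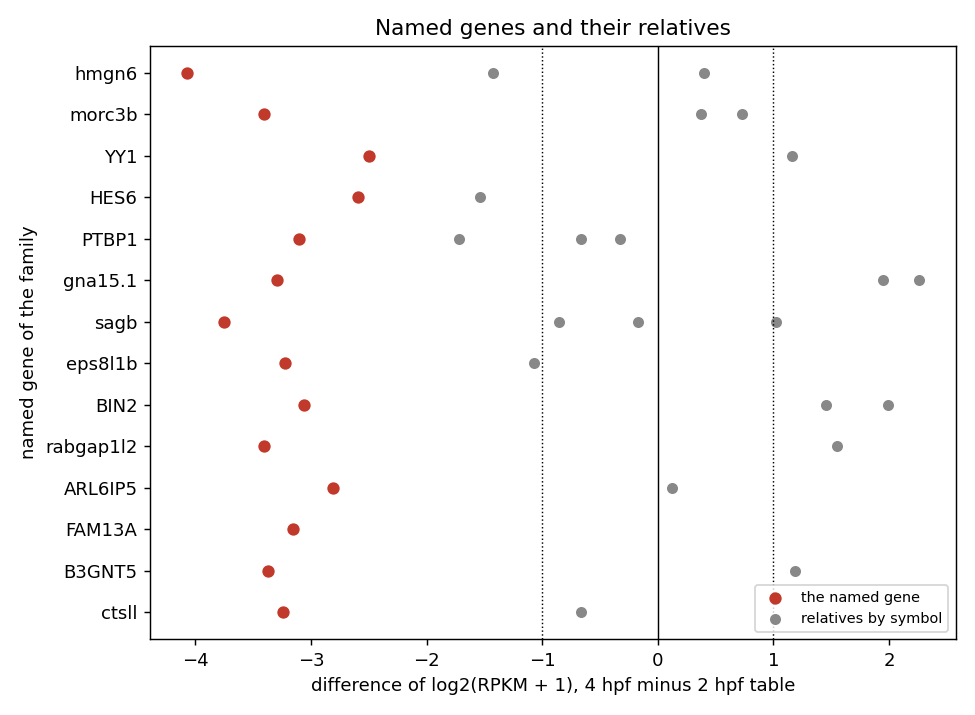
log2(RPKM + 1) of the 4 hpf table less that of the 2 hpf table for 14 of the named genes (red) and for their relatives by symbol with at least 1 RPKM in either table (grey), 1 family per row (FAM13A had no such relative), with dotted lines at the 2-fold limits. The named genes lie between -4.07 and -2.50, and the relatives between -1.72 and 2.26.

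Both large families were low throughout. Of 47 other 5S_rRNA entries, 14 had at least 1 RPKM in either table. Of these, 10 were at least 2-fold lower in the 4 hpf table and none higher, beside 10.9% lower and 33% higher among all genes tested. All 10 passed the limit of 1 RPKM only through the 2 hpf table. An entry at 0 RPKM in 1 table and at 1 RPKM or more in the other is always called. That these 10 were called at all thus follows largely from the filter. A direction of the family was not tested, and so few reads would not carry one. The highest of the 47 in the 2 hpf table was listed at 6.40 RPKM there and was not listed in the 4 hpf table. Entries of this family have similar sequences, and values near 1 RPKM stand for very few reads in genes of this length. Of 55 other pimr genes, only pimr129 reached 1 RPKM in either table, with 0.258 RPKM in the 4 hpf table and 2.80 RPKM in the 2 hpf table. The member pimr138 was thus the most abundant of its family in the 2 hpf table.

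A shared symbol was a feature of some members that the rule did not use. The symbol sat on more than 1 Ensembl ID for 6 of the 19 members (31.6%) and for 186 of the 1704 genes (10.9%) that met the same naming rule and the 10 RPKM limit but had at least 1 RPKM in the 4 hpf table. This is a description without a test, and 1 of the 6 is the 5S_rRNA entry. Those 1704 genes had a median of 37.2 RPKM in the 4 hpf table and 18.6 RPKM in the 2 hpf table. In a current RefSeq annotation (assembly GRCz12tu), used only for the order of genes, 12 members could be placed by a unique symbol, and none was a direct neighbour of another member. Several of their 24 flanking protein-coding genes could not be matched by a unique symbol, so their levels are not known here. Of those matched, 6 had at least 1 RPKM in either table. Of these 6, 2 were at least 2-fold higher in the 4 hpf table and 1 at least 2-fold lower, beside 33% and 10.9% of all genes tested. The lower one, unc93a beside pimr138, passed the limit of 1 RPKM only through the 2 hpf table. One of those higher was srp68 beside evpla, a signal recognition particle gene with 31.5 RPKM in the 4 hpf table and 10.4 RPKM in the 2 hpf table.

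Of 19 gene lists of early embryonic pathways and tissues, 4 held a member each, and 15 of the members were in no list. The counts and medians below leave out the member, whose direction was fixed by its selection. On the deposited values they stand beside 33% higher, 10.9% lower and a median of 0.66 for all genes tested. Of the calls over all genes, 12.05% were higher with an equal median ratio, 39.7% with quantile normalization and 84.8% with equal sums. These 3 are shares of the calls, not of the genes tested, so whether a list was called more often than all genes after rescaling was not tested. Among 15 other measured genes of desmosomes, plakins and the cornified envelope, the list of evpla, 3 were at least 2-fold higher in the 4 hpf table and 2 at least 2-fold lower, with a median difference of -0.27. The most abundant gene of the list, sdc4, encodes a proteoglycan, not a desmosome, plakin or cornified envelope protein. It had 25.5 RPKM in the 4 hpf table and 31.0 RPKM in the 2 hpf table, and its difference of -0.27 was the list's median. The plakophilin gene PKP4 had 6.41 RPKM in the 4 hpf table and 2.86 RPKM in the 2 hpf table. The 2 desmoplakin genes went opposite ways, at 5.64 RPKM in the 4 hpf table and 2.19 RPKM in the 2 hpf table for ENSDARG00000076673 under the symbol DSP, and at 0.819 and 5.12 RPKM in the same order for ENSDARG00000022309. The latter and eppk1 (0.147 and 1.98 RPKM), the 2 lower genes, passed the limit of 1 RPKM only through the 2 hpf table. Among the higher genes, plecb (3.53 and 0.837 RPKM) passed only through the 4 hpf table. With the median ratio made equal none of the 15 was higher and 5 were lower, beside 347 higher and 2533 lower over all genes. Quantile normalization gave 1 higher and 5 lower, beside 1369 and 2082 over all genes. Equal sums gave 5 higher and 2 lower with a median of 0.12, beside 6668 and 1199 over all genes. The list thus had no direction that held under every scaling.

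The high mobility group and Notch lists had medians below that of all genes. Of 8 other measured high mobility group genes, the list of hmgn6, 1 was at least 2-fold higher in the 4 hpf table and 3 at least 2-fold lower, with a median of -0.46. The architectural chromatin gene hmga1a had 77.6 RPKM in the 4 hpf table and 219 RPKM in the 2 hpf table, whereas HMGB3 (ENSDARG00000006408) had 148 RPKM in the 4 hpf table and 53.5 RPKM in the 2 hpf table and hmgb2b 103 and 59.8 RPKM. Of 11 other measured Notch pathway genes, the list of HES6, 3 were at least 2-fold higher in the 4 hpf table and 1, HEY1, at least 2-fold lower, with a median of -0.58. HEY1, at 0.409 RPKM in the 4 hpf table and 5.14 RPKM in the 2 hpf table, passed the limit of 1 RPKM only through the 2 hpf table. The same held for hmgn3 among the lower high mobility group genes. The hairy-related genes her5 (22.9 RPKM in the 4 hpf table and 28.2 RPKM in the 2 hpf table) and her11 (16.2 and 24.7 RPKM) were the most abundant of these, and the ligand gene jag2b had 8.98 and 2.73 RPKM. The medians of both lists were negative under each of the 3 scalings. With the median ratio made equal no gene of either list was 2-fold higher, beside 347 higher and 2533 lower over all genes. At that scaling 4 of the 8 high mobility group genes and 7 of the 11 Notch genes were at least 2-fold lower. Quantile normalization also gave none higher, with 3 high mobility group genes and 5 Notch genes lower, beside 1369 higher and 2082 lower over all genes. With equal sums 2 of the high mobility group genes were higher and 3 lower, and 4 of the Notch genes were higher and 1 lower, beside 6668 and 1199 over all genes. Some lists without a member had lower medians, such as -1.06 for 20 fibroblast growth factor pathway genes, 11 of them at least 2-fold lower.

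The lipid list was close to all genes. Of 12 other measured lipid and yolk metabolism genes, the list of MTTP, 4 were at least 2-fold higher in the 4 hpf table and 1 at least 2-fold lower, with a median of 0.91. The lower gene, afp4, had 0.265 RPKM in the 4 hpf table and 4.03 RPKM in the 2 hpf table. It passed the limit of 1 RPKM only through the 2 hpf table. The cholesterol transport gene NPC2 had 139 RPKM in the 4 hpf table and 65.5 RPKM in the 2 hpf table. The fatty acid-binding protein gene FABP3 had 26.5 RPKM in the 4 hpf table and 13.2 RPKM in the 2 hpf table. The retinoic acid-degrading gene CYP26A1 was lower in the 4 hpf table, at 19.3 RPKM in the 4 hpf table and 34.7 RPKM in the 2 hpf table. With the median ratio made equal none of the 12 was 2-fold higher and 3 were 2-fold lower, beside 347 higher and 2533 lower over all genes. Quantile normalization gave 1 higher and 3 lower, beside 1369 and 2082 over all genes. Equal sums gave 8 higher and 1 lower with a median of 1.23, beside 6668 and 1199 over all genes.

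**Figure D4:**
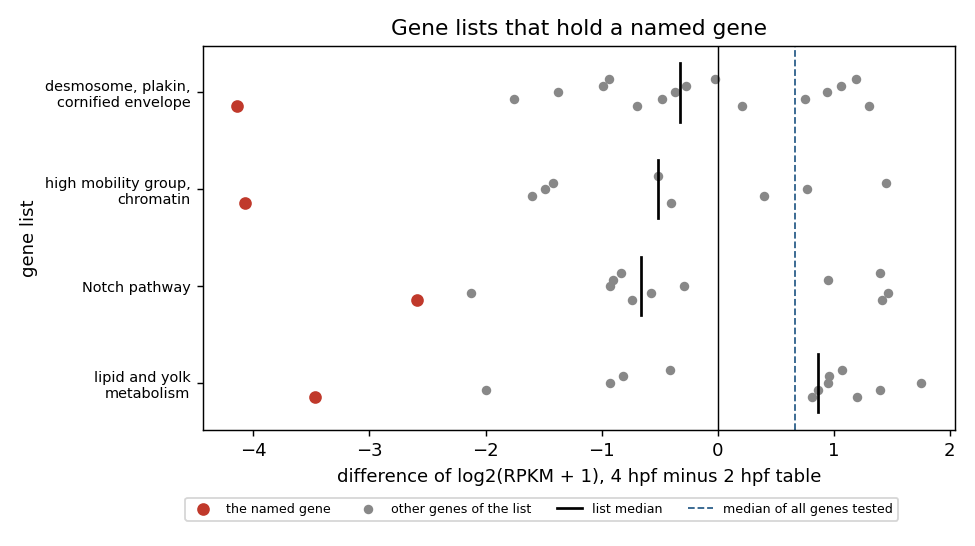
log2(RPKM + 1) of the 4 hpf table less that of the 2 hpf table for measured genes of the 4 lists that hold a named gene (red), with each list's median, the named gene included, as a black bar and the median of all genes tested, 0.66, as a dashed line. In each list the named gene is the lowest point, as its selection would place it, and only the lipid list has a median above 0.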

How the data were processed

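RNA held by anti-FLAG beads was sequenced from 4 samples, 2 per age, and the deposited values are the authors' RPKM in 1 table of gene means per age, with no header. The submitters' processing notes name the genome build Zv9 and the tools TopHat2 2.1.1, Bowtie, cutadapt 1.13, Trimmomatic 0.36, bedtools 2.16.2 and MACS2 2.0.10. For the counting program, the annotation and the role of each tool, nothing was given in those notes or the file contents. A gene missing from a table was taken as 0 RPKM. An Ensembl reference table named 20039 of 27205 IDs, some in human style, and no promoter or protein sequence was used here.

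Differences are log2(RPKM + 1), 4 hpf minus 2 hpf, for genes reaching 1 RPKM in one or both tables, called at an absolute difference of 1. This scale understates low genes. With 1 mean per age no test was run. Members and gene lists were chosen with earlier results of these data known. Every member is named, with the 5 genes just outside each limit, except 1 that is not reported here, and up to 3 further genes per list that holds a member. Symbols of list genes were compared in any case, also without a paralog letter.

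Read totals were estimated from the ratios of low values between the tables, matched within 0.002%. The length of a gene with 1 read must be a whole number, and at the chosen step this held within 0.05 bases for 85.0% of 234 genes at the most frequent ratio, and for 45.7% at 0.5 times that step. The calculation was tested on simulated data. Python 3.11.15, numpy 2.4.6 and pandas 2.3.3 were used.

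Alternatives were other member limits, pseudocounts of 0.1 and 5, no filter or one of 5 RPKM, quantile normalization, equal sums of the tables, a median ratio made equal over genes reaching 5 RPKM in both, and exact symbols only. The families of relatives, exact symbols and list counts without the member were chosen after seeing the data.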

Additional observations from a re-analysis of the deposited data

How the results depend on the processing

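The number of members followed the limits. Against 19, there were 78 at a limit of 5 RPKM and 3 at 20 RPKM in the table labelled 2 hpf, 10 below 0.5 RPKM and 33 below 2 RPKM in the table labelled 4 hpf, and 34 with the median ratio made equal. Rescaling to an equal sum gave 15, and 13 had a symbol on 1 ID only. The members' median difference of -3.24 was -4.66 with a pseudocount of 0.1 and -1.62 with a pseudocount of 5. All 19 were lower in the table labelled 4 hpf under each of the 3 scalings, an outcome that the wide gap required by their selection largely fixed in advance. Over all genes, 4409 were called higher and 1452 lower. A pseudocount of 5 gave 1907 and 371, an equal median ratio 347 and 2533, equal sums 6668 higher, quantile normalization 1369 higher, and a filter of 5 RPKM 607 lower. Higher genes were therefore 75.2% of the calls on the deposited values, 84.8% with equal sums, 12.05% with an equal median ratio and 39.7% with quantile normalization. With MTTP included, the lipid list's median of 0.87 became 0.049 with an equal median ratio and 0.18 with quantile normalization. The medians of the other 3 lists changed by less than log2(1.5), a tolerance chosen here, under every setting tried. Within that tolerance the high mobility group list's median of -0.51, with hmgn6 included, became -1.10 with a pseudocount of 0.1. No paired analysis was possible because the replicates of an age were deposited only as their mean, which also kept single replicates from being left out. Promoter and protein properties of the members were not analysed here.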
